A study of Drosophila melanogaster with 37 samples.

Results

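The genes described here encode enzymes that digest protein, starch and sugar in the fly gut, followed through the PolyA (mRNA) libraries of heads, bodies and gonads of adult Drosophila melanogaster. They were matched by gene name, from 5 gene families: the Jonah (Jon) serine endopeptidases, the trypsins with Greek-letter names (Try), the maltases of the Mal-A and Mal-B groups, and the proximal and distal amylases (Amy-p and Amy-d). Of the 17559 genes in the tables, 39 carried such a name: 16 Jon, 11 Try, 8 Mal-A, 2 Mal-B and 2 Amy genes. A sixth family in the rule, the LMan mannosidases, had 0 genes under that name, and its 6 members were found by gene ID under other names and are reported apart from the 39.

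All flies were of an isogenic Canton-S strain, dissected as young adults on standard medium, with no allele or treatment that differed between groups. The 12 libraries fall into 6 groups of 2 replicates: female head, female body, ovary, male head, male body and testis. The sample called testis is the whole inner male reproductive tract, including the seminal vesicle, accessory gland and ejaculatory duct. Nothing in the sources used here says how the 2 replicates of a group were obtained, so p-values measure the spread between these samples, which may be technical, and the other 25 of the 37 samples of the series were not analysed here.

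In the adult fly, food is broken down mainly in the midgut, whose cells secrete proteases, amylase and other hydrolases into the lumen. Trypsins and the related Jonah enzymes cut dietary protein, amylase cuts starch to maltose and longer fragments, and maltases (alpha-glucosidases) release glucose from them. In flies, the GATA factor GATAe, which binds short motifs built on the letters GATA, maintains the gene expression of the midgut, and sugar-sensing factors such as Mondo control genes of sugar metabolism. A body sample holds the gut together with fat body, muscle, cuticle and, as the markers show, the gonads.

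Levels are given in TPM (the transcript abundance of a gene, scaled for its length and for the library's total), so that they can be set side by side between genes. The tables keep no read counts. The median ratio of the deposited coverage to TPM, which grows with depth, was 4.12 to 11.0 per library, and among the bodies it was 10.6 and 11.0 in replicate 1 (female and male) and 4.12 and 4.88 in replicate 2. The labels held against marker genes: the photoreceptor and neuron list summed to between 12964 and 14269 TPM in the 4 head libraries and to at most 46.7 TPM elsewhere. The oocyte mRNA osk was at 230 and 705 TPM in the female body and at 417 and 1225 TPM in the ovary. The sperm gene dj was at 380 and 379 TPM in the male body. Bodies thus retained gonad tissue. Of the other ovary germline markers, bcd was also highest in the ovary, at 24.7 and 113 TPM. exu was highest in the testis sample, at 1335 and 1953 TPM, against 150 and 308 TPM in the ovary. grk was at 20.0 and 27.5 TPM in the ovary and at 9.06 to 15.0 TPM in heads. Of 6 midgut markers, GATAe and the proton pump subunit gene Vha100-4 were the most body-restricted, at most at 0.126 TPM elsewhere. Myo31DF was at 13.0 and 39.3 TPM in the ovary, against 7.62 to 33.2 TPM in bodies. Myo61F reached 19.4 TPM in the ovary, above its lowest body library at 12.9 TPM. mex1 reached 37.0 and 42.1 TPM in the testis sample, and lab was at 1.80 to 4.83 TPM in the heads and testis and at 0.262 to 2.15 TPM in the bodies. Genes of the mitochondrial genome held 43.2 and 48.9% of the TPM in the replicate 1 bodies and 2.23 and 2.83% in the replicate 2 bodies, so the replicate libraries differed in makeup before any digestive gene was considered.

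The stretches of DNA in front of the genes are shown first, since short letter strings recurred there in members of different families. Some body-high members, such as Mal-A2 and etaTry, held none of these strings in the 250 bases searched. Whether the strings go with the body-high pattern was not tested. The sequences are the 150 bases upstream of the annotated start of 7 genes, 5′ to 3′ on the gene's strand, read from the RefSeq copy of dm6: the 4 Jonah genes with the highest mean level in bodies, the Jon66C pair, which had higher mean levels in the female than in the male body, and Mal-B2, which was not body-high. Capitals mark the letters TGATAA or AGATAA on either strand, the forms of the GATA motif searched, and TATAAA on the strand of the gene, the core of a TATA box. The stretches are chr3R:29922066-29922215 on the plus strand for Jon99Ciii, chr3R:29924616-29924765 on the minus strand for Jon99Cii, chr3L:6039005-6039154 on the plus strand for Jon65Aiv, chr3L:6050607-6050756 on the plus strand for Jon65Aiii, chr3L:8391390-8391539 on the plus strand for Jon66Ci, chr3L:8393650-8393799 on the minus strand for Jon66Cii and chr2L:11849808-11849957 on the plus strand for Mal-B2.
Jon99Ciii: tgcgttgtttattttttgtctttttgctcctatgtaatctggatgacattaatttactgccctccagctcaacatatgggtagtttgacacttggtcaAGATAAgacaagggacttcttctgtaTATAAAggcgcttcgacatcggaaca
Jon99Cii: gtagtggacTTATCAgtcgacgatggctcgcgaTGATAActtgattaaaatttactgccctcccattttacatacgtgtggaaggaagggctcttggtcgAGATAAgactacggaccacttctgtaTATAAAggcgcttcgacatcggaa
Jon65Aiv: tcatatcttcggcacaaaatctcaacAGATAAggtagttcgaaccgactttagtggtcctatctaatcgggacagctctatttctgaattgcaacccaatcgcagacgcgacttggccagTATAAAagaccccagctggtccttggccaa
Jon65Aiii: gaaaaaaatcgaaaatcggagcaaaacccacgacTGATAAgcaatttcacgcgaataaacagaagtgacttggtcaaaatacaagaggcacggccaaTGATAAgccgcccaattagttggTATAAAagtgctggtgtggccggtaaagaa
Jon66Ci: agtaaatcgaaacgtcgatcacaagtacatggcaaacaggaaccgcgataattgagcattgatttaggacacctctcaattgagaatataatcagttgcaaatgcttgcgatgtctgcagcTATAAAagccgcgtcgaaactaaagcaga
Jon66Cii: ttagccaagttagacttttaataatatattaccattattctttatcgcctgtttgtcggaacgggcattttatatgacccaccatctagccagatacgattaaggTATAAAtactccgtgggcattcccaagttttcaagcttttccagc
Mal-B2: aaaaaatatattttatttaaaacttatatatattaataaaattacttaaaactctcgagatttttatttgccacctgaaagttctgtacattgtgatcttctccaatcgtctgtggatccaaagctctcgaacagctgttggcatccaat

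In these stretches TATAAA began between 24 and 45 bases before the start of each of the 6 Jonah genes. Jon99Cii had GATA letters at 141, 117 and 50 bases before its start, and Jon99Ciii, its near-identical copy, at 188 and 52 bases, the first of these beyond the printed stretch. Jon66Ci and Jon66Cii had theirs at 195 and 203 bases, also beyond it. Mal-B2 had no GATA letters in 250 bases, and its TATAAA lay 157 bases before the start.

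Over the 250 bases upstream of the start, 32 of the 39 genes (82.1%) held TGATAA or AGATAA on at least 1 strand, against 32.5% of the 17453 genes with such a window and 32.9% of the 12826 of them that passed the filter on low values. By family these were 14 of 16 Jon, 10 of 11 Try, 5 of 8 Mal-A, 1 of 2 Mal-B and 2 of 2 Amy genes. The 7 genes without the letters were Jon25Biii, Jon65Aii, etaTry, Mal-A1, Mal-A2, Mal-A5 and Mal-B2. TATAAA on the strand of the gene was found in 26 of 39 (66.7%, against 28.4% of all genes), and within 60 bases of the start in 23 of 39 (59.0%, against 10.6%). Jonah genes made up 13 of those 23. A GATA form and TATAAA can share at most 1 end letter, and a match is a description of the letters, not a bound site. The genes are copies of one another within families, so they are not independent instances of a motif.

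**Figure D1:**
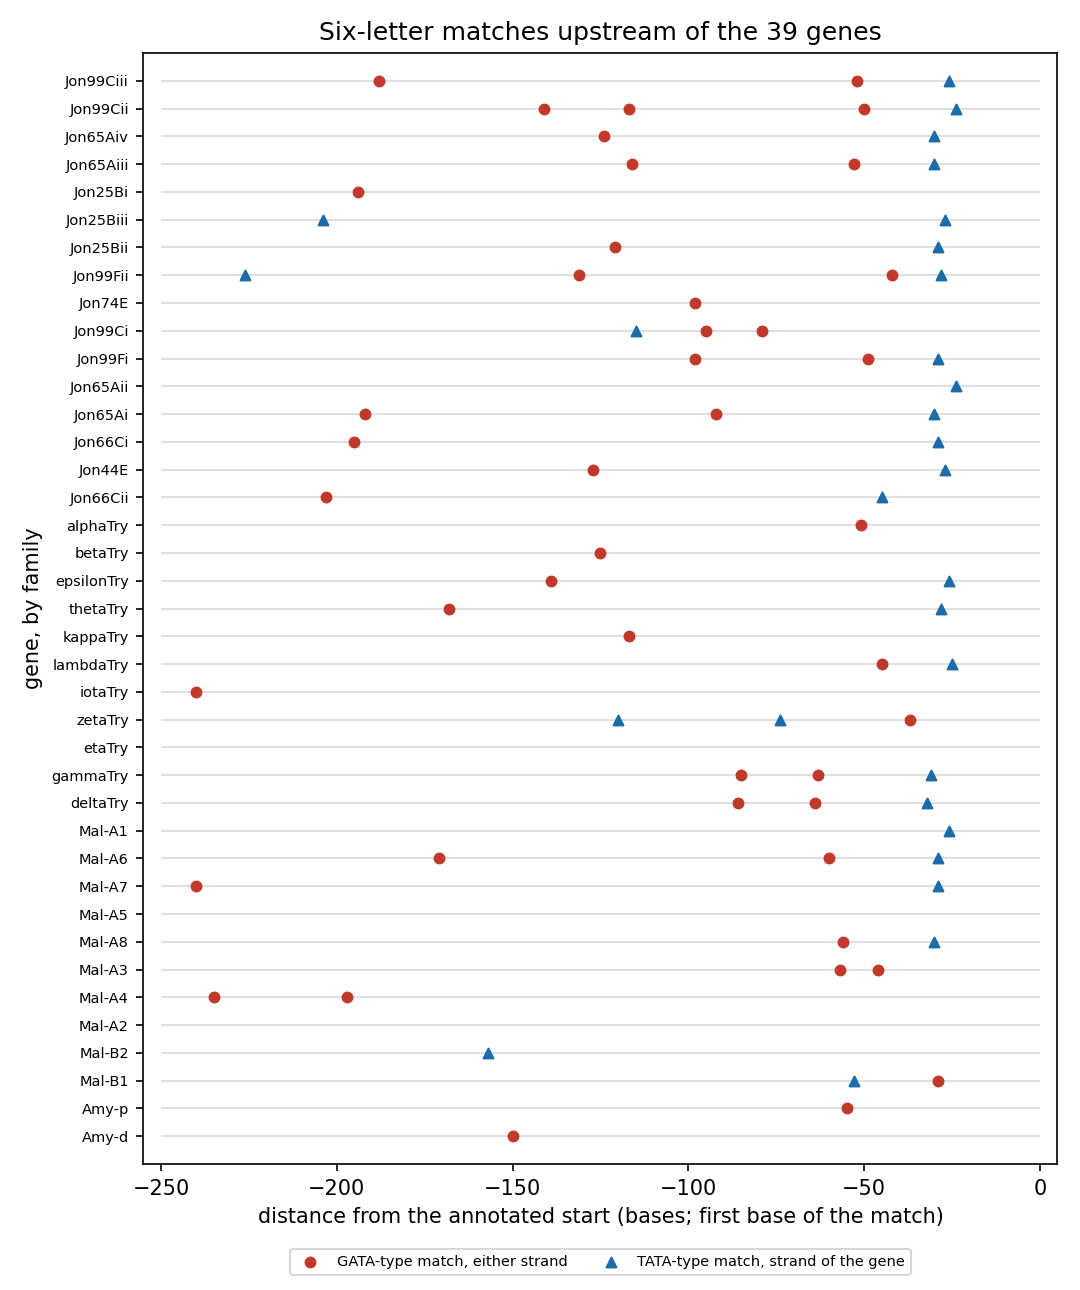
Position of GATA-type letters (circles, either strand) and TATA-type letters (triangles, strand of the gene) in the 250 bases upstream of each of the 39 genes. The x axis is the distance in bases from the annotated start to the first base of the match, and the y axis lists the genes by family. GATA-type letters occur in 32 of 39 windows and TATA-type letters within 60 bases of the start in 23.

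The 39 genes were body genes almost without exception. In 37 of them the lowest of the 4 body libraries lay above the highest of the 8 head and gonad libraries, which held for 4.30% of the 12882 genes tested. The exceptions were Mal-A5 and Mal-B2. In Jon66Cii the lowest body library, at 0.0894 TPM, was only just above the highest other library, at 0.0577 TPM. The members together held 0.837 and 2.63% of all TPM in replicates 1 and 2 of the female body and 0.820 and 3.92% in those of the male body, against at most 0.0233% in any head or gonad library. In such bulk samples fewer gut cells and less RNA per cell cannot be told apart. With mitochondrial genes left out, the body shares were 1.47, 2.69, 1.60 and 4.03% in the same order.

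The low values outside bodies came with low values of other tissues' genes. The 4 accessory gland markers summed to 53.2 and 8.48 TPM in the female body and to 123 and 37.1 TPM in the ovary, against 11795 and 15348 TPM in the testis sample. The 4 sperm genes summed to 67.7 and 14.5 TPM in the ovary, against 6401 and 6475 TPM in the testis sample. In the same ovary libraries the 16 Jon genes summed to 28.3 and 22.9 TPM. Whether the traces of digestive mRNA in heads and gonads have the same source as these was not tested.

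**Figure D2:**
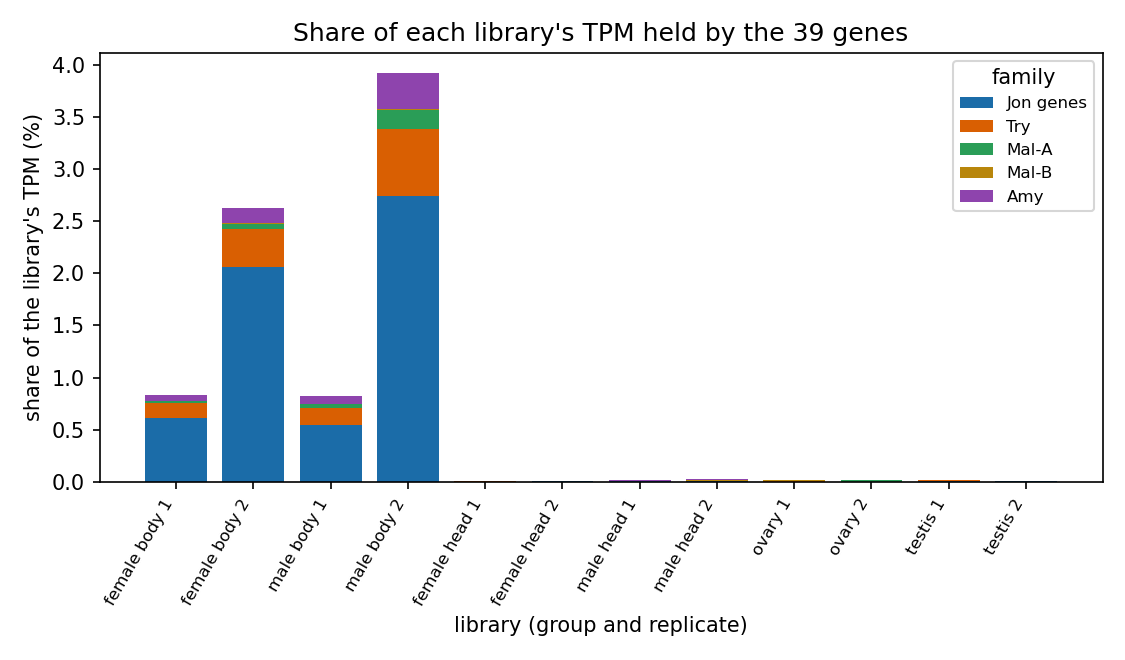
Share of each library's TPM (%) held by the 39 genes, stacked by family, in the 12 libraries (x axis, group and replicate). The 4 body bars reach 0.837, 2.63, 0.820 and 3.92%, and the 8 head and gonad libraries stay at or below 0.0233%, barely visible at this scale.

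Jonah proteases carried most of this mRNA: 73.1 and 78.2% of the members' TPM in the female body and 66.9 and 69.9% in the male body (replicates 1 and 2). Trypsins followed with 14.0 to 19.1%, the amylases with 5.71 to 8.89% and the Mal-A maltases with 1.94 to 4.85%. The order of these 4 families was the same in all 4 body libraries. Within families the levels were very uneven, with mean body levels from 4.44 to 4756 TPM among Jon genes, from 6.67 to 1512 TPM among trypsins and from 19.7 to 365 TPM among Mal-A genes.

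Group means of log2(TPM + 1) were compared with limma, using the 12882 genes whose mean over the 12 libraries was at least 1 TPM, with Benjamini-Hochberg adjustment over all of them and a threshold of 0.05. Of the 39 members, 38 passed this filter (Mal-B1 did not), and 20 of the 38 passed it through the bodies alone, with a mean below 1 TPM over the 8 other libraries. These genes could hardly fail to be higher in bodies, so the counts that follow are descriptions. In bodies against heads and gonads, 37 members were higher and 0 lower, beside 26.1% of all genes tested that were higher and 7.59% that were lower. The members' median log2 difference was 5.76, against 0.31 for all genes tested.

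The single contrasts gave similar counts. In the female body against the female head, 37 members were higher and 0 lower (24.1 and 11.1% of all genes). The male body against the male head gave 35 higher and 0 lower (30.9 and 11.7%). The female body against the ovary gave 36 higher and 0 lower (11.5 and 0.116%), and the male body against the testis sample gave 37 higher and 0 lower (16.1 and 20.4%). Members not called were Mal-B2 in both contrasts with heads and in that with the ovary, Mal-A5 in the male body-head contrast and against the ovary, and Jon66Cii in both male contrasts. With the replicate number as a block, 1 member was lower in the male body than in the male head, Mal-B2, beside 21.7% of all genes.

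**Figure D3:**
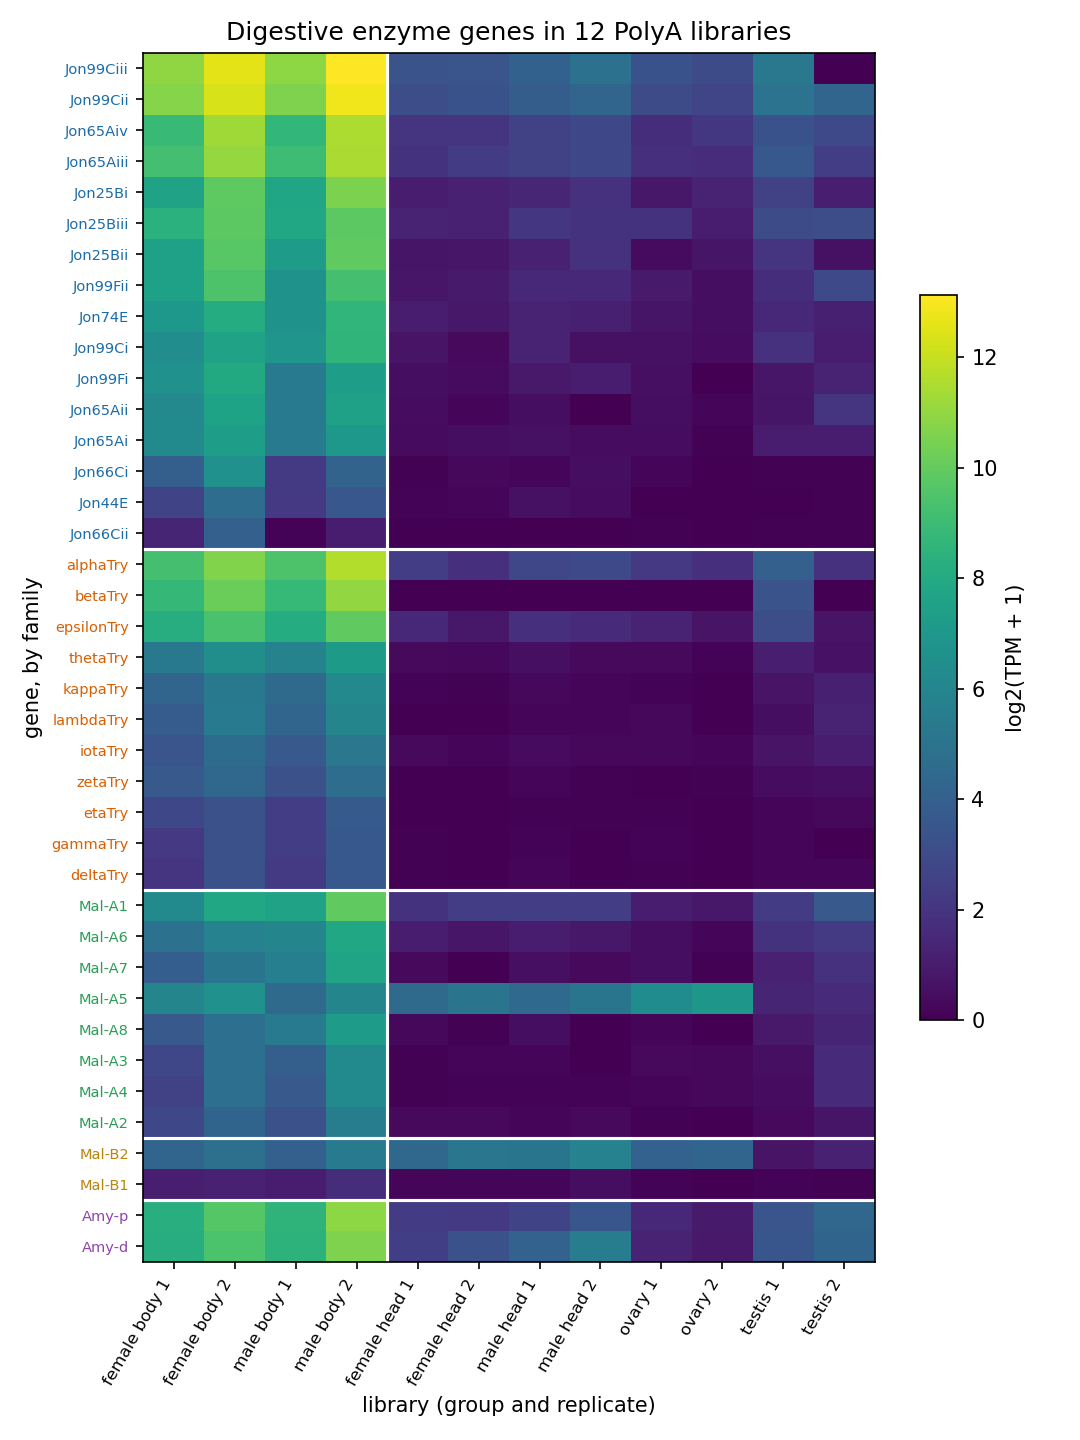
Level of each of the 39 genes, as log2(TPM + 1) in colour, in the 12 libraries (x axis, group and replicate), with genes on the y axis grouped by family and ordered by their mean level in bodies. The 4 body columns are brighter than the others in 37 of 39 genes, though by very little for Jon66Cii in male body replicate 1. They are brighter in replicate 2 than in replicate 1, and Mal-A5 and Mal-B2 are also bright in heads and ovary.

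Among the Jonah genes, which encode serine endopeptidases related to chymotrypsin, Jon99Ciii was the most abundant. It reached 1971 and 6135 TPM in the female body and 1937 and 8983 TPM in the male body. Its levels elsewhere were 9.34 and 10.1 TPM in the female head, 15.7 and 29.0 TPM in the male head, 8.92 and 7.24 TPM in the ovary, and 37.4 TPM and a listed 0 in the testis sample. The groups did not overlap, and the log2 difference of bodies from the rest was 8.47 ± 0.87 (SE; limma adjusted p = 6.46e-05).

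Jon99Cii followed with 1713 and 5228 TPM in the female body and 1555 and 7338 TPM in the male body. It was at 7.63, 9.06, 13.4 and 18.4 TPM in the female and male heads, at 7.19 and 5.68 TPM in the ovary and at 30.6 and 18.5 TPM in the testis sample. Bodies stood 7.93 ± 0.45 (SE) above the rest on the log2 scale (limma adjusted p = 1.65e-06). The coding sequences of Jon99Cii and Jon99Ciii differ at 3 of 798 positions (99.6% identical), so the split of reads between them, including the 0 of Jon99Ciii in a testis library where Jon99Cii was at 18.5 TPM, is uncertain.

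The other 14 Jon genes had mean body levels from 4.44 TPM (Jon66Cii) to 1562 TPM (Jon65Aiv). In all 16 the lowest body library lay above the highest other library, narrowly so in Jon66Cii. Jon99Fi and Jon99Fii are 98.1% identical in coding sequence, and their split is uncertain as well.

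The trypsins, which cut protein after lysine and arginine, were led by alphaTry. It was at 607 and 1605 TPM in the female body and at 711 and 3125 TPM in the male body. In the female and male heads it was at 4.18, 2.55, 5.87 and 6.34 TPM, in the ovary at 3.52 and 2.39 TPM and in the testis sample at 15.6 and 2.62 TPM. The bodies did not overlap the rest, and the log2 difference was 7.78 ± 0.52 (SE; limma adjusted p = 4.07e-06).

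betaTry was at 425 and 1176 TPM in the female body and at 451 and 2029 TPM in the male body. It was listed at 0 in 7 of the 8 head and gonad libraries and at 9.41 TPM in replicate 1 of the testis sample. No fold is given against groups listed at 0. gammaTry and deltaTry have identical coding sequences, and their levels, 3.12 to 11.3 TPM in bodies, ran side by side. In all 11 trypsins the body libraries lay above all others.

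Among the maltases of the Mal-A group, Mal-A1 was the most abundant. It was at 77.2 and 223 TPM in the female body and at 186 and 974 TPM in the male body. Elsewhere it lay between 0.795 TPM (ovary replicate 2) and 11.6 TPM (testis replicate 2), below every body library. Its log2 difference of bodies from the rest was 5.78 ± 0.48 (SE; limma adjusted p = 1.80e-05).

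Mal-A6 was at 28.9 and 55.7 TPM in the female body and at 61.4 and 237 TPM in the male body, and between 0.120 and 3.76 TPM elsewhere. Its log2 difference was 5.08 ± 0.35 (SE; limma adjusted p = 5.47e-06). Both genes were higher in each male body than in the female body of the same replicate number.

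Mal-A5 went another way. Its highest levels were in the ovary, 83.0 and 121 TPM, with 61.8 and 97.9 TPM in the female body and 22.5 and 60.9 TPM in the male body. Heads held 22.2 and 31.7 TPM in females and 21.7 and 33.0 TPM in males, and the testis sample 1.60 and 1.95 TPM. The female body was below the ovary in both replicate numbers, a log2 difference of -0.36 ± 0.52 (SE) that did not pass the test (limma adjusted p = 0.740). The male body was above the testis sample by 3.78 ± 0.52 on the same scale (limma adjusted p = 6.52e-04). Bodies retain the gonad, so the share of Mal-A5 mRNA in the female body that comes from the ovary was not tested. It is the only member of the 8 Mal-A genes whose body libraries overlapped the others.

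Mal-B2 was highest in the male head, at 33.6 and 55.1 TPM. It was at 20.9 and 34.3 TPM in the female head, at 18.3 and 27.7 TPM in the female body, at 15.5 and 40.8 TPM in the male body and at 16.6 and 18.8 TPM in the ovary. The testis sample stood apart at 0.604 and 1.31 TPM, and the male body was above it by 3.77 ± 0.52 (SE) on the log2 scale (limma adjusted p = 6.65e-04). Bodies against heads and gonads gave 0.78 ± 0.32 (limma adjusted p = 0.0907, and 0.0039 with the replicate block). Heads, bodies and ovary overlapped, and the male body was below the male head by -0.74 ± 0.52 (SE; limma adjusted p = 0.314, and 0.0370 with the replicate block). Its neighbour Mal-B1 was at 1.18, 1.27, 1.08 and 2.27 TPM in the bodies and at most at 0.379 TPM elsewhere, too low to pass the filter.

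Of the amylases, Amy-p was at 300.3 and 823 TPM in the female body and at 368 and 1910 TPM in the male body. The heads held 3.83 and 3.68 TPM (female) and 5.57 and 10.6 TPM (male), the ovary 1.80 and 0.911 TPM and the testis sample 10.2 and 19.2 TPM. Its log2 difference of bodies from the rest was 6.71 ± 0.47 (SE; limma adjusted p = 5.73e-06).

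Amy-d was at 287 and 677 TPM in the female body and at 361 and 1545 TPM in the male body. It was at 4.50 and 8.45 TPM in the female head and at 16.6 and 44.8 TPM in the male head, above Amy-p in all 4 head libraries although below it in all 4 body libraries. The ovary held 1.36 and 0.837 TPM and the testis sample 10.6 and 18.0 TPM. Its log2 difference was 6.01 ± 0.46 (SE; limma adjusted p = 1.05e-05). The coding sequences of both amylases are 98.9% identical, 17 of 1485 positions differing, so reads can be split wrongly between them.

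The replicate libraries of a body differed in every tested member. In the female body all 38 tested members were higher in replicate 2, by a median of 2.75-fold (range 1.38 to 9.89). In the male body all 38 were higher too, by a median of 4.03-fold (2.44 to 12.3). The medians over all genes were 1.72-fold and 1.95-fold. Between the same libraries the midgut markers went from 50.7 to 123 TPM in females and from 54.6 to 151 TPM in males, as sums of 6 genes. The 3 flight muscle genes went from 541 to 2697 TPM and from 800 to 4439 TPM, and the 3 fat body genes from 518 to 701 TPM and from 472 to 886 TPM. The part of these shifts, and of the mitochondrial share, in the members' replicate difference was not tested. The midgut sum is not particular to the gut, since it was also 58.9 TPM in ovary replicate 2 and 66.7 TPM in testis replicate 2. The fat body sum is not particular to bodies, since it was also 412 and 751 TPM in the male head.

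Male and female bodies were therefore read within a replicate number as well as by the fit. In the fit, 1 member was higher in the female body and 2 in the male body, beside 17.3% of all genes tested that were higher and 25.1% that were lower in females. Replicate numbers pair the libraries here, since libraries with the same number deviated together from their group means, and with the number as a block the counts were 3 (higher in females) and 4 (higher in males), beside 34.6 and 31.4% of all genes. In both fits the members' counts make up a smaller share of 38 than the background does of all genes. The members' median log2 difference, female minus male, was -0.26, against -0.01 for all genes. Scaling by the median of ratios gave 0 members higher in females and 20 of 37 higher in males, beside 15.2 and 50.9% of all genes, and moved the median of all genes by -0.73. Without mitochondrial genes the counts were 3 and 5, beside 27.5 and 32.3% of all genes.

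Jon66Cii was the member called higher in females. It passed the filter only through the female body, with a mean of 0.134 TPM over the other 10 libraries, so its difference between the sexes is a description. It was at 1.52 and 15.1 TPM in the female body and at 0.0894 and 1.10 TPM in the male body, 17.0-fold and 13.7-fold higher in females within replicates 1 and 2. It was listed at 0 in all 4 heads and was at most at 0.0577 TPM in the gonads. The log2 difference on the log2(TPM + 1) scale, which understates low genes, was 2.07 ± 0.66 (SE). No p-value is given, since the filter favoured the female body. The female replicate 1 level lay above the male replicate 2 level, so the sexes did not overlap. The call was lost without female body replicate 2 and without male body replicate 1. Over all 12 libraries left out in turn, the log2 difference ran from 0.74 to 3.41.

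Its neighbour Jon66Ci, named after its values were seen, was at 14.9 and 98.7 TPM in the female body and at 3.78 and 17.1 TPM in the male body. It was 3.94-fold and 5.77-fold higher in females within replicates. Female replicate 1 lay below male replicate 2, so the sexes overlapped across replicates. The log2 difference was 2.10 ± 0.78 (SE; limma adjusted p = 0.0553, and 0.0170 with the block). The genes face each other within 2.1 kb on chromosome arm 3L and are 84.8% identical in coding sequence.

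The Mal-A genes leaned to males. Except Mal-A5, all 7 were higher in the male body in both replicate numbers, with medians of 2.41-fold and 4.26-fold, and this held under each of the 4 scalings. Mal-A7 was at 14.3 and 33.4 TPM in the female body and at 50.1 and 199 TPM in the male body. Every male library was above every female one, and the log2 difference, female minus male, was -2.14 ± 0.61 (SE; limma adjusted p = 0.0179, and 0.0067 with the block).

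Mal-A8 was at 11.6 and 27.0 TPM in the female body and at 42.8 and 151 TPM in the male body, again without overlap. Its log2 difference was -2.12 ± 0.56 (SE; limma adjusted p = 0.0122, and 0.0048 with the block). Outside bodies both genes stayed at or below 2.67 TPM. The calls of both were lost with a pseudocount of 0.1 (adjusted p = 0.0775 and 0.0800) and when male replicate 2 or female replicate 1 was left out.

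Mal-A1 and Mal-A6 were 2.41-fold and 2.13-fold higher in males in replicate 1 and 4.37-fold and 4.26-fold in replicate 2. Their log2 differences of -1.69 ± 0.79 and -1.57 ± 0.58 (SE) missed the threshold (limma adjusted p = 0.116 and 0.0534) and passed it with the block (0.0232 and 0.0225). Mal-A5 was lower in males, at 0.365 and 0.622 of the female level, with a log2 difference of 1.05 ± 0.52 (SE; limma adjusted p = 0.138, and 0.0075 with the block). Under the median of ratios its replicate 2 ratio turned to 1.15.

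Trypsins and amylases showed no call between the sexes, with or without the replicate block. Amy-p and Amy-d were each called in 2 of 23 alternatives (lowest limma adjusted p = 0.0060 and 0.0024). Of the trypsins, alphaTry and betaTry were followed through the same 23, with 0 calls each. Trypsins had median ratios of male over female of 1.17 and 1.49 in replicates 1 and 2, with 8 of 11 higher in males in both. The amylases had ratios of 1.23 and 1.26 in replicate 1 and 2.32 and 2.28 in replicate 2. Of the 16 Jon genes, 7 were higher in females and 2 in males in both replicates. Over all genes tested, 44.8% were higher in males and 45.0% in females in both replicates, with median ratios of 0.920 and 1.12. The median of ratios, which raised the all-gene medians to 1.87 and 2.07, turned the Jon counts to 2 and 12, with Jon medians of 1.53 and 2.01.

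**Figure D4:**
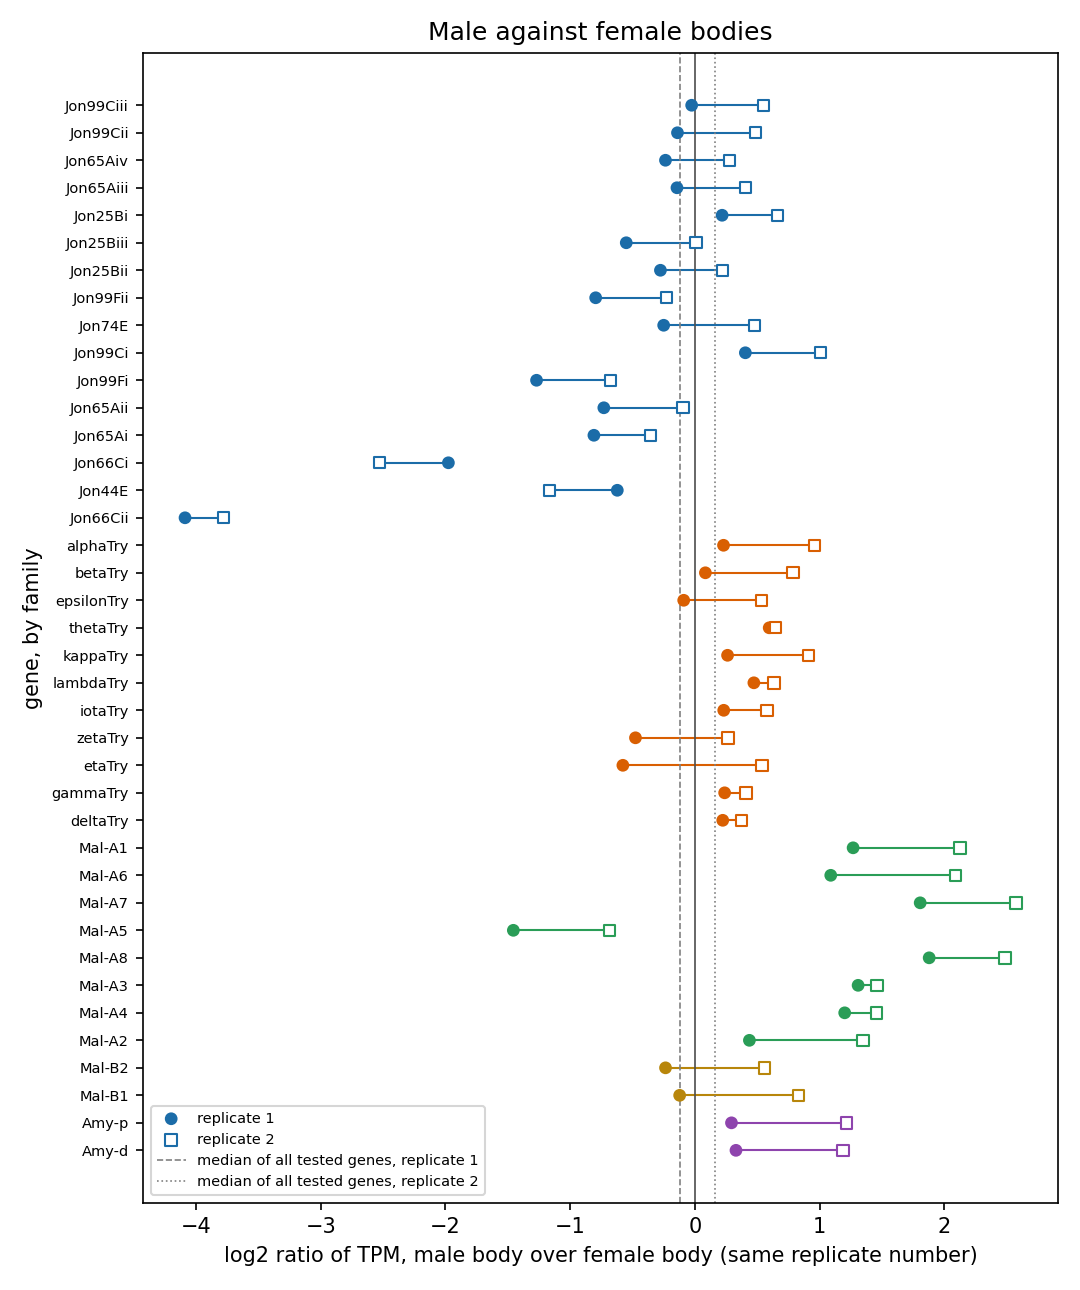
Log2 ratio of the male over the female body level (TPM) for each of the 39 genes, within replicate 1 (filled circles) and replicate 2 (open squares), with the genes on the y axis by family and the dashed and dotted lines at the median ratios of all genes tested (0.920 and 1.12). The 7 Mal-A genes other than Mal-A5 lie to the right of 0 in both replicates, and Jon66Ci and Jon66Cii lie far to the left.

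Heads gave no call between the sexes: 0 members were higher and 0 lower in the female head, with 1 of 38 at an unadjusted p under 0.05 in limma, beside 0.0932% of all genes called in either direction. The difference between females and males in the body-head difference, tested as an interaction, likewise had 0 members called, with 1 at an unadjusted p under 0.05, beside 32.5% of all genes. With the block it called Mal-A5 and Mal-A8, in opposite directions, beside 55.9% of all genes called in either direction. Their interaction values were 1.06 ± 0.38 and -2.06 ± 0.72 (SE) on the log2 scale, with limma adjusted p of 0.0410 and 0.0345.

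The 22 other digestion genes listed beside the members, covering further proteases, lipases, lysozymes and glycosidases, were read in the same fit. Of the 17 that passed the filter, 15 were higher and 0 lower in bodies than in heads and gonads. Over all genes tested these shares were 26.1 and 7.59%. The median log2 difference was 3.09. In 10 of the 17 the body libraries lay above all others, beside 4.30% of all genes tested. In 7 they overlapped: Ser12, Try29F, tobi, Lip4, LysB, LysE and Gal. Some of the 17 passed the filter through the bodies alone, such as Phae2 and Amyrel, at most at 0.0496 and 0.281 TPM elsewhere. Such genes could hardly fail to be higher in bodies, so the counts of this list are descriptions. LysE was highest in the testis sample, at 108 and 167 TPM, against 24.2 to 104 TPM in bodies. The aspartic protease gene Bace was at 309, 1080, 295 and 1624 TPM in the female and male bodies, and at most at 5.66 TPM elsewhere. The Jonah-like protease gene yip7 was at 266, 1086, 228 and 1218 TPM, and at most at 8.92 TPM elsewhere. The lipase gene mag (magro) was at 29.1, 122, 41.0 and 286 TPM, and at most at 3.98 TPM elsewhere.

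Between the sexes, 2 of the 17 were called higher in the female body and 3 in the male body, and 2 and 6 with the replicate block, beside the shares of all genes given above for both fits. Those named here were chosen after their values were seen. Ser12 was at 38.5 and 48.4 TPM in females against 0.125 TPM and a listed 0 in males. It passed the filter only through the female body, with a mean of 0.272 TPM over the other 10 libraries, so no test is given. The lysozyme gene LysP was at 27.8 and 59.7 TPM in females against 4.68 and 16.04 TPM in males (limma adjusted p = 0.0060).

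Of the male-high genes, tobi was at 27.3 and 45.9 TPM in the female body and at 72.9 and 206 TPM in the male body. Try29F was at 0.944 and 1.01 TPM against 2.05 and 3.98 TPM. LysB was at 4.14 TPM and a listed 0 in females against 4.76 and 14.3 TPM in males, so its difference rests on replicate 2.

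The 6 mannosidase genes of the LMan family all had higher means in bodies. Of these, 4 of 6 passed the test, beside 26.1% of all genes that were higher. With the replicate block 6 of 6 passed (42.0% of all genes were higher in that fit). LManIII, LManIV and LManV passed the filter through the bodies alone, with a mean below 1 TPM over the 8 other libraries. These counts are therefore descriptions. LManVI, the most abundant, was at 16.03 and 164 TPM in the female body and at 29.1 and 354 TPM in the male body, and at most at 12.2 TPM elsewhere. Their sum was 6.71-fold and 9.05-fold higher in replicate 2 than in replicate 1 of the female and male body, more than any of the 5 member families.

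Of 8 regulators, 3 were called higher in bodies than in heads and gonads and 0 lower, beside 26.1 and 7.59% of all genes. The 3 were GATAe, sug and daw, a count too small to set apart from that share. With the replicate block there were 5, srp and bigmax being added, beside the 42.0% of all genes. daw, a ligand of the Activin branch of TGF-beta signalling, was at 5.40, 8.50, 3.33 and 12.6 TPM in bodies and at 5.29, 8.92, 4.95 and 10.4 TPM in heads, so bodies and heads overlapped, while gonads held 0.102 to 1.23 TPM. GATAe was at 3.08 and 7.87 TPM in the female body and at 3.04 and 13.6 TPM in the male body. In the other 8 libraries it was at most at 0.126 TPM. It passed the filter through the bodies alone, so its call is a description. The sugar sensor Mondo, listed under its older name Mio, was at 32.5, 72.9, 14.1 and 41.2 TPM in the female and male bodies and at 42.8 and 105 TPM in the ovary, with no call (limma adjusted p = 0.561, and 0.0591 with the block). The zinc-finger gene sug (sugarbabe) was at 18.5, 48.8, 15.2 and 59.6 TPM in bodies and at 0.508 to 14.7 TPM elsewhere (limma adjusted p = 0.0034). bigmax, the partner of Mondo, was at 29.3, 41.1, 12.6 and 23.9 TPM in bodies and at 27.5 and 37.1 TPM in the ovary (limma adjusted p = 0.227, and 0.0113 with the block).

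The members sit close together in the genome. By the coordinates of the tables on dm6, 37 of 39 lie in 9 clusters with gaps under 30 kb between neighbours. All 11 trypsins lie in 20.7 kb of chromosome arm 2R (11336840 to 11357537) and all 8 Mal-A genes in 24.3 kb of the same arm (8449664 to 8473961), which with the amylases and Jon44E holds 22 of the 39. Within the Mal-A cluster, Mal-A5 (8462753 to 8465092) lies beside Mal-A6 (8465158 to 8467595), and these neighbours had opposite sex ratios and different tissues of highest level. In 24 of 39 genes the coding sequence is a single exon. The RefSeq gene of the same ID had the same start and end in 38 of 39, and 8 members had a copy of at least 95% coding identity among the members.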

How the data were processed

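The PolyA libraries were made from mRNA isolated on beads. The authors trimmed reads (cutadapt), mapped them to dm6 with STAR and used Ensembl release 88. StringTie is among the tools named in the submitters' processing notes. The authors deposited, per library, the coverage (a signal), FPKM and TPM of 17559 genes. TPM was the main unit, FPKM an alternative, and coverage served only to describe depth. No strand-specific counting is stated for these libraries, so reads of overlapping genes cannot be told apart.

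Members were matched by gene name, by a rule that used no measured value. TPM + 1 was log2-transformed, genes with a mean under 1 TPM were left out, and limma 3.58.1 (R 4.3.3; eBayes with trend, two-sided, 1 model of 12 libraries and 6 group means) gave each contrast. The steps were tested on simulated data. Sequences and clusters were read with Biopython 1.88 from RefSeq, and Python 3.11.15 was used for the rest.

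Libraries of the same replicate number correlated in their deviations from group means (15 of 15 pairs of groups above 0.1, from 0.345 to 0.769), so the number pairs them, and a fit with it as a block was run. Other alternatives were a pseudocount of 0.1, other filters, FPKM, the median of ratios, leaving out mitochondrial genes, only the libraries compared, eBayes without trend, and each library left out. Named genes were the 2 most abundant per family in bodies, those called between female and male body, and those highest outside bodies. The families, and so the members, and the lists were chosen with earlier results of these data known.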

Additional observations from a re-analysis of the deposited data

Results flagged for a closer look

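Mal-A5 in the body stood on opposite sides of the same sex's gonad in females and males. On the log2(TPM + 1) scale, the female body lay below the ovary by a mean of -0.36 (-0.42 and -0.30 in replicates 1 and 2), while the male body lay above the testis sample by a mean of 3.78 (3.18 and 4.39). The female value did not pass the test (limma adjusted p = 0.740), and over its 23 alternatives the adjusted p ran from 0.331 to 1. The difference between these contrasts was not tested. Groups of 2 libraries are too small for a search for single libraries that stand apart.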

How the results depend on the processing

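With 2 libraries a group, no depth in the tables and replicates of unlike makeup, counts varied less in tissue contrasts than in sex contrasts. Since 20 of the 38 tested members passed the filter through the bodies alone, steady tissue counts are a description. The counts of members higher in bodies stayed within 1.5 times of those given under every alternative. Members lower in the female body than in the female head went from 0 to 1 under the median of ratios and without mitochondrial genes, with or without the replicate block, and in males from 0 to 1 under FPKM, without mitochondrial genes, with the block, and with the block without mitochondrial genes. Members lower in the female than in the male body numbered 0 with a pseudocount of 0.1, 8 under FPKM, 20 under the median of ratios (also with the block), 5 without mitochondrial genes, 4 with the block and 7 with both. Members higher numbered 3 under FPKM, without mitochondrial genes, with the block and with both, and 0 under the median of ratios. Of all genes, 50.9% were lower and 15.2% higher in the female body under the median of ratios. The shares were 32.3 and 27.5% without mitochondrial genes, and 31.4 and 34.6% with the block. Shares for the other alternatives are not given, so those counts only describe the members. Leaving out 1 library gave 0 to 6 higher and 0 to 9 lower: 6 higher without male body replicate 2, 3 without female body replicate 1, 9 lower without male body replicate 1 and 4 without female body replicate 2. The interaction called 2 higher and 4 lower under FPKM, 14 lower under the median of ratios (also with the block), 4 and 3 without mitochondrial genes (also with the block), 1 and 1 with the block, and 0 to 3 and 0 to 4 with 1 library left out. The interaction called 32.5% of all genes in either direction without the block and 55.9% with it. The median of ratios moved its median over all genes by -0.87, so the 14 are not particular to the members. Beyond the calls given in the report, the block changed no call of a member.

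Signs turned only for sex differences that were not called in the fit without the block. With 1 library left out, the log2 difference, female minus male, ran from -1.37 to 0.84 for Jon99Ciii, from -1.29 to 0.94 for Jon99Cii, from -1.66 to 0.47 for alphaTry, from -1.52 to 0.65 for betaTry, from -0.83 to 0.51 for Mal-B2, from -1.94 to 0.43 for Amy-p and from -1.81 to 0.29 for Amy-d, lowest without male body replicate 1 and highest without male body replicate 2. The call of Jon66Cii in bodies against the rest was lost without male body replicate 2. With 1 library left out, its log2 difference there ran from 0.94 to 2.27. Jon66Cii passed the filter only through the female body, so this call is a description. It missed the filter under FPKM and the median of ratios. Without mitochondrial genes the members' mean share was 0.0224% in the female head, 0.0373% in the male head and 0.0189% in the ovary. The causes were not tested. The pairings of the replicate block with another scaling were chosen after seeing the data.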
